A study of Mus musculus with 9 samples.

Results

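The V0 sector is the membrane-embedded part of the vacuolar proton pump (V-ATPase), and its subunit transcripts are described here in mouse adipose tissue. The members were chosen by symbol: Atp6v0a1, Atp6v0a2, Atp6v0a4, Atp6v0b, Atp6v0c, Atp6v0d1, Atp6v0d2, Atp6v0e and Atp6v0e2. All 9 had a row in the deposited table, out of 22527 symbols. The set was proposed with the depot values of these genes known, those of Atp6v0e2 in particular. Their levels and differences are therefore given as a description, with no test. The data are ribosome-bound RNA from brown (BAT), inguinal white (iWAT, subcutaneous) and epididymal white (eWAT, visceral) adipose tissue of C57BL/6 mice aged 8 weeks, with 3 libraries per depot and 9 in all. The genotype is given as wild type for each library, although ribosomes were pulled down with an antibody to GFP, the name of the deposited table mentions adiponectin, and the labels do not say which cells carried the tag or whether replicates were separate animals. The RNA was depleted of ribosomal RNA before sequencing. Values are FPKM (read fragments scaled to transcript length and to the number of mapped reads), so that levels of different genes can be compared per length.

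The V-ATPase couples ATP hydrolysis by its cytosolic V1 sector to the transport of protons through V0, and so acidifies lysosomes, endosomes and secretory compartments. In V0, a ring of proteolipid subunits (Atp6v0c and Atp6v0b) turns against the large a subunit, which holds the proton path and exists as 4 isoforms with different locations. Subunit d couples the ring to the central stalk of V1, and subunit e is a small hydrophobic protein of the membrane domain with a pair of isoform genes. In fat cells the acid lysosome breaks down lipid and protein and serves as a platform for mTORC1 signalling.

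The deposited table holds no read totals. A depth was therefore estimated from how finely low values are spaced, since 1 read is worth a fixed step in each library. It was 11100000 to 21300000 reads in BAT, 2920000 to 4650000 in iWAT, 16200000 in eWAT 1, and 4460000 and 4610000 in eWAT 2 and 3. All 3 BAT libraries were thus deeper than all 3 iWAT libraries, and depth and depot cannot be told apart in that comparison. The library labelled BAT 3 is called inguinal in 1 of its label fields. It held Ucp1, the uncoupling protein of brown adipocytes, at 3054 FPKM, beside 2626 and 2434 in the other BAT libraries and 0.63 to 3.38 in the white ones, and was kept in BAT. The library iWAT 1 correlated more closely with the eWAT libraries (0.968 to 0.976, Pearson, log2(FPKM + 1), across genes) than with iWAT 2 and 3 (0.944 and 0.96). Some results that rest on iWAT are also given without iWAT 1. Adipocyte markers had a summed level of 24650 to 67480 FPKM over 9 genes, most of it Fabp4 (means of 23780, 36250 and 45370 FPKM in BAT, iWAT and eWAT). Others differed between libraries. Lep was at 1.46 to 4.13 FPKM in BAT and 144 to 178 in eWAT, and Adipoq fell to 456 FPKM in iWAT 2.

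The e subunit gene Atp6v0e2 had the widest fold between depot means among the tested members. Atp6v0e2 (chromosome 6, 48487568 to 48491797, plus strand, build mm9, protein-coding, ENSMUSG00000039347.5) was at 0.382, 0.146 and 0.280 FPKM in BAT 1 to 3. The iWAT libraries held 8.65, 1.57 and 3.92 FPKM and the eWAT libraries 55.9, 39.0 and 43.5 FPKM. The 3 depots did not overlap: each eWAT library lay above each iWAT library, and each iWAT library above each BAT library. Its sister gene Atp6v0e (chromosome 17, 26813341 to 26836589, plus strand, protein-coding, ENSMUSG00000015575.8) had its highest level in BAT instead. Its BAT libraries held 524, 466 and 516 FPKM, its iWAT libraries 253, 76.1 and 87.2, and its eWAT libraries 328, 264 and 306. Atp6v0e too did not overlap between depots, but its order was BAT, eWAT, iWAT, and iWAT 1 stood well above the other iWAT libraries. In log2(FPKM + 1), BAT minus iWAT was 2.07, BAT minus eWAT 0.75 and iWAT minus eWAT -1.32 (SE 0.39 for each). With quantile normalization BAT minus eWAT was 0.29. Without iWAT 1, BAT minus iWAT was 2.61 and iWAT minus eWAT -1.86.

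The coding sequences of this isoform pair are shown because the contrast between them depends on reads being assigned to the right gene. Both have 246 bases (81 residues and a stop codon), taken from GENCODE vM1 transcripts, 5′ to 3′, with capitals at the positions where they differ.
Atp6v0e: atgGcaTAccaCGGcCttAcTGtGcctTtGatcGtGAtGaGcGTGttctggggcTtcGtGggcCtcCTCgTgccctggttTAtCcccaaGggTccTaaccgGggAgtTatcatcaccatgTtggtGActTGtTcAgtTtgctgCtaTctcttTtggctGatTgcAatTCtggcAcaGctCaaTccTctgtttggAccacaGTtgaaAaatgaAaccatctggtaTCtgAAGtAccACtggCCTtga
Atp6v0e2: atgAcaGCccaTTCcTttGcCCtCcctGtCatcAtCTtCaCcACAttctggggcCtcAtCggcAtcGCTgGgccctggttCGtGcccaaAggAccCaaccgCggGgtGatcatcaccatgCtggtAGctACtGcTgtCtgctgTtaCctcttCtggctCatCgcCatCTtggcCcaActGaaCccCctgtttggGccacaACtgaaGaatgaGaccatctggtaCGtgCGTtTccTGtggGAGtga
They share 171 of 246 bases (69.5%), and the longest identical stretch has 12 bases. The differing positions lie along the whole coding sequence. Neither coding sequence aligned to a further place in the mm9 genome, in contrast to Atp6v0c below. The search did not find either e gene from the other, so a copy as diverged as this pair could be missed. Only coding bases were searched, while the longest transcripts have 2812 bases (Atp6v0e) and 1832 bases (Atp6v0e2). The assignment of reads outside the coding sequence was not checked.

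Atp6v0e2 averaged 0.269 ± 0.118 FPKM for BAT, 4.71 ± 3.60 for iWAT and 46.1 ± 8.77 for eWAT (SD, n = 3). The mean in eWAT was 171 times that in BAT and 9.79 times that in iWAT, and the mean in iWAT was 17.5 times that in BAT. On the scale log2(FPKM + 1), which understates changes of low values, the fit across all genes gave BAT minus eWAT as -5.20 (SE 0.40), BAT minus iWAT as -1.97 (SE 0.40) and iWAT minus eWAT as -3.23 (SE 0.40). With a pseudocount of 0.1 in place of 1 the first 2 became -7.00 and -3.45. Without iWAT 1, BAT minus iWAT was -1.49 and iWAT minus eWAT -3.71. From the estimated depth and the length of its transcript (1832 bases), the BAT values rest on about 8, 6 and 8 reads, the iWAT values on about 74, 10 and 21, and the eWAT values on about 1660, 319 and 367. Among the 4 deeper libraries (11100000 reads or more), eWAT 1 was at 55.9 FPKM and the BAT libraries at most at 0.382. Among the 5 others (4650000 reads or fewer), eWAT 2 and 3 were at 39.0 and 43.5 FPKM and the iWAT libraries at most at 8.65. The deeper class holds 1 white library, eWAT 1, whose depth estimate is the least supported (43.8% of its low values near a whole read), and the part of depth in these differences was not tested.

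**Figure D1:**
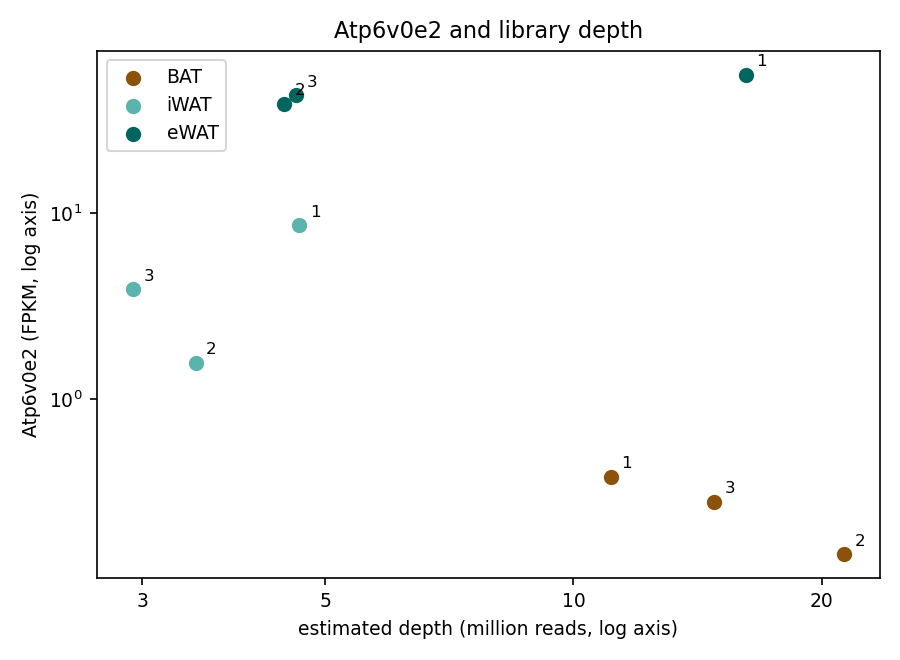
Atp6v0e2 (FPKM, log axis) against the estimated number of reads of each library (log axis), 1 point per library, coloured by depot and numbered by replicate. The eWAT libraries lie at 39.0 to 55.9 FPKM at both low and high depth, while the BAT libraries lie at 0.146 to 0.382 FPKM.

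As a share of the summed e subunit FPKM, Atp6v0e2 made up 0.0729%, 0.0314% and 0.0542% in BAT 1 to 3. The share was 3.30%, 2.02% and 4.30% in iWAT and 14.6%, 12.9% and 12.4% in eWAT. The ratio within a library does not depend on a scaling factor per library, and it too did not overlap between depots. Without iWAT 1 the iWAT shares were 2.02% and 4.30%, so the iWAT range does not rest on that library. The sum of both e genes was 502 ± 31.4 FPKM for BAT, 144 ± 103 for iWAT and 346 ± 40.3 for eWAT (SD, n = 3). Atp6v0e therefore remained the major e transcript in all 9 libraries.

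Promoter windows of both e genes are printed because these genes ran in opposite directions between BAT and eWAT. Those of 2 other members are printed because they hold the motif searched for. They are RefSeq windows from 250 bases before to 50 bases after a gene start (build GRCm38.p6). The search was for CACGTG, an E-box whose extended form TCACGTG is bound by the lysosomal regulators TFEB and TFE3 as well as by other factors. CACGTG equals its own reverse complement, TCACGTG reads CACGTGA on the other strand, and matches to these overlap each other. The motif was chosen after these windows had been read. Capitals mark the matches.
Atp6v0e2, chr6:48537319-48537618, plus strand: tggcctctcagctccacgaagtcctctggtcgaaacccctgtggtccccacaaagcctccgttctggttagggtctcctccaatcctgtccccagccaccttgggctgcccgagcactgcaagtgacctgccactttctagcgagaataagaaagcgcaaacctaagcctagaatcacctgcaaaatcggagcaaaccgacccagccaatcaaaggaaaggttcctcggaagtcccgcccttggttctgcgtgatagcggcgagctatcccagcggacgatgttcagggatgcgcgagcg
Atp6v0e, chr17:26676146-26676445, plus strand: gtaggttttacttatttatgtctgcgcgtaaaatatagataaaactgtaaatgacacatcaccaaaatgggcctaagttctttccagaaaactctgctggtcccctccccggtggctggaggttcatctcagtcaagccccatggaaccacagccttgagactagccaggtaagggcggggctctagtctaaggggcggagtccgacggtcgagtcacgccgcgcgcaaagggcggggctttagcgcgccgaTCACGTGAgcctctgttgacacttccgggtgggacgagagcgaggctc
Atp6v0b, chr4:117887280-117887579, minus strand: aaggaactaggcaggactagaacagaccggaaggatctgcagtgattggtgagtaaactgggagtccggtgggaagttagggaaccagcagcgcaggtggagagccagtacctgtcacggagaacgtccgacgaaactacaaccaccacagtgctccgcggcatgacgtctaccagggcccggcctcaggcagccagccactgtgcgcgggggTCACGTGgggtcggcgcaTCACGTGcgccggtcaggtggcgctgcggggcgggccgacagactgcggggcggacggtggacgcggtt
Atp6v0d1, chr8:105566015-105566314, minus strand: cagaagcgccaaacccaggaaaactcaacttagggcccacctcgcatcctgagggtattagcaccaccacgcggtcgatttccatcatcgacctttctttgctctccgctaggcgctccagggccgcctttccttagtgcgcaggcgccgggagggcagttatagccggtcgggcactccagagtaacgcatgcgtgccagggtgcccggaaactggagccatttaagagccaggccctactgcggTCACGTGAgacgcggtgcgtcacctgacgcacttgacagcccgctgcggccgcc
The window of Atp6v0e holds 1 CACGTG, starting 3 bases after the gene start, and that of Atp6v0d1 holds 1, starting 3 bases before it. The window of Atp6v0b holds 2, starting 36 and 18 bases before the gene start. Each of these 3 windows has the longer TCACGTG or CACGTGA, and the window of Atp6v0e2 has no CACGTG. Of 9 windows for 7 members, 3 hold CACGTG, and of 10 windows for 9 V1 genes, 1 does. Of the 3 members with the motif, Atp6v0e and Atp6v0b had the higher mean in BAT and Atp6v0d1 in eWAT. A link between the motif and the levels was not tested. Over all 32817 windows of the same length, 7.15% hold CACGTG and 3.76% the longer form. The windows of Atp6v0a1, Atp6v0a4 and Atp6v0c (3 windows) had no match, and Atp6v0a2 and Atp6v0d2 were not among the windows used.

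**Figure D2:**
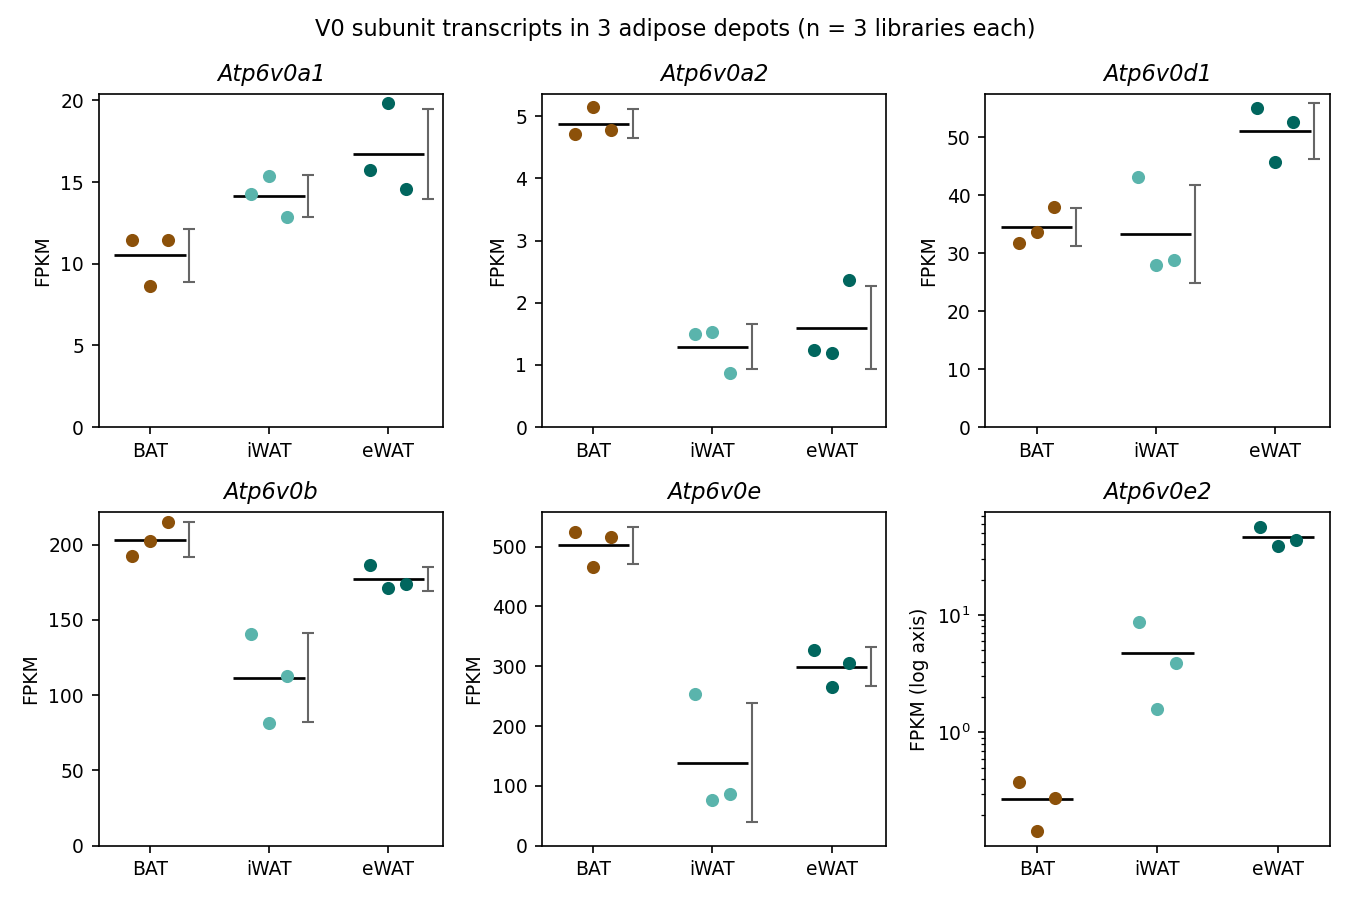
FPKM of 6 V0 members in BAT, iWAT and eWAT (points, replicates 1 to 3 from left to right, horizontal line, mean, side bar, SD, n = 3). The axes start at 0 except for Atp6v0e2, which is on a log axis without an SD bar. Atp6v0a2 and Atp6v0e are highest in BAT, and Atp6v0e2 is highest in eWAT.

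The proteolipid ring was represented by Atp6v0b (the c″ subunit, chromosome 4, 117556931 to 117559938, minus strand) and Atp6v0c (the c subunit, chromosome 17, 24300833 to 24306647, minus strand). Atp6v0b had 192, 203 and 215 FPKM in the BAT libraries, 141, 81.6 and 112 in the iWAT libraries and 186, 171 and 174 in the eWAT libraries. The iWAT libraries were all lower than those of the other depots, and the BAT libraries stood just above the eWAT ones. BAT minus iWAT was 0.89 (SE 0.23), BAT minus eWAT 0.20 (SE 0.23) and iWAT minus eWAT -0.70 (SE 0.23) in log2(FPKM + 1). Without iWAT 1 the first became 1.08 and the last -0.88. Over all omissions of 1 library they ran from 0.69 to 1.08 and from -0.88 to -0.49. With quantile normalization BAT minus eWAT was -0.13, and BAT minus iWAT fell to 0.38 and was no longer past the threshold, so both differences depend on the scaling. A non-coding transcript of the opposite strand, Gm12841, overlaps Atp6v0b, and the strand setting of the counting is not given in the sources used here.

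Atp6v0c could not be measured on its own. Its row lists 178, 218 and 142 FPKM for BAT, 12.4, 6.52 and 0.0275 for iWAT, and 116, 0.00281 and 111 for eWAT. The row of its pseudogene Atp6v0c-ps2 lists 5.93, 0.0565 and 57.3 FPKM for BAT, 124, 36.1 and 50.4 for iWAT, and 53.7, 119 and 0.00355 for eWAT. The 2 rows traded places between libraries: Atp6v0c held 0.00236% of their sum in eWAT 2 and 99.997% in eWAT 3. The coding sequence of Atp6v0c (468 bases, 2 introns in the gene) aligned without introns to chromosome 6, 37756086 to 37756553 (mm9), with 467 of 468 bases identical. GENCODE vM1 has the pseudogene Gm15487 there, a name that RefSeq gives as a synonym of Atp6v0c-ps2. A further intronless copy on chromosome 7 (4364038 to 4364503) had 455 identical bases. No other member's coding sequence aligned to more than its own gene.

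The sum of both rows was 184, 218 and 199.6 FPKM for BAT, 136, 42.6 and 50.4 for iWAT, and 170, 119 and 111 for eWAT. Its means were 201 ± 16.9, 76.5 ± 52.0 and 133 ± 32.1 FPKM (SD, n = 3). Adding 2 FPKM values is exact only for transcripts of equal length. Every BAT library was above every white library in this sum, and iWAT 1 lay inside the eWAT range. The difference between BAT and iWAT was 5.24 (SE 1.59) for Atp6v0c as listed and 1.57 for the sum, an alternative chosen after seeing the data. For BAT minus eWAT the values were 2.91 and 0.61, and for iWAT minus eWAT -2.33 and -0.97.

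**Figure D3:**
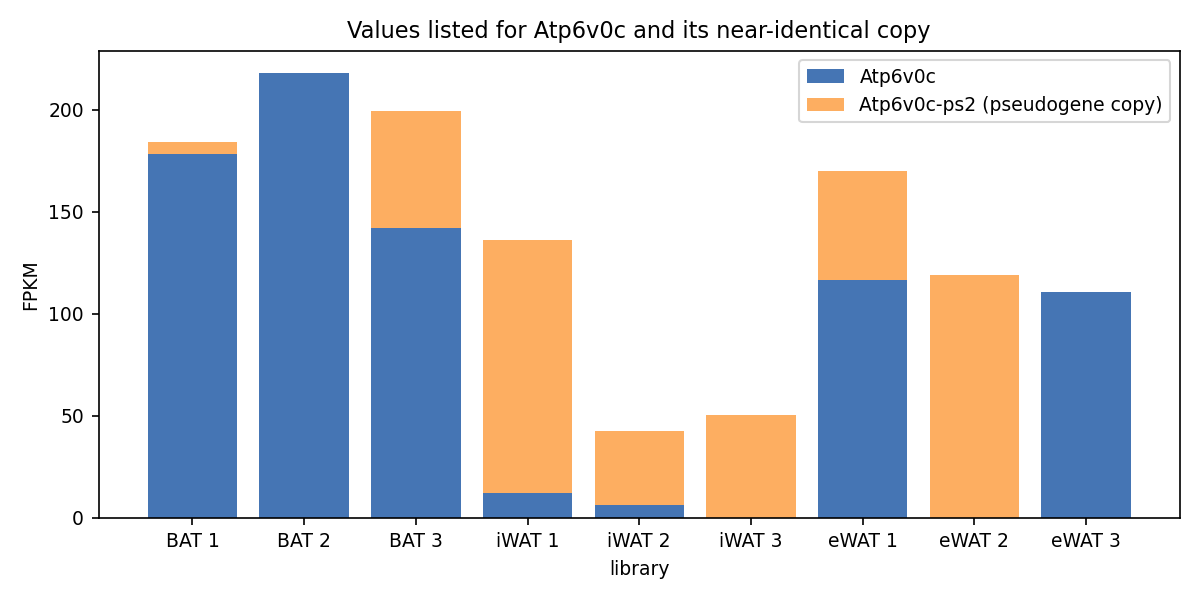
Stacked FPKM listed for Atp6v0c (blue) and its pseudogene copy Atp6v0c-ps2 (orange) in each library. The split changes from library to library, as between eWAT 2 (0.00281 and 119 FPKM) and eWAT 3 (111 and 0.00355 FPKM), while the summed heights are 184 to 218 FPKM in BAT.

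The a subunit carries the proton path, and its isoforms are known for different compartments and cell types. Atp6v0a1 (chromosome 11, 100870766 to 100925033, plus strand) was the most abundant a isoform in every library. Its values were 11.5, 8.65 and 11.5 FPKM for BAT, 14.3, 15.4 and 12.8 for iWAT and 15.7, 19.9 and 14.6 for eWAT. All BAT libraries were below all white libraries, and iWAT and eWAT overlapped. BAT minus iWAT was -0.40, BAT minus eWAT -0.62 and iWAT minus eWAT -0.22 (SE 0.22 for each). Quantile normalization gave -0.64 for the first of these, and median-ratio scaling -0.03 for the last.

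Atp6v0a2 (chromosome 5, 125079673 to 125204824, plus strand), an isoform known for the Golgi and endosomes, went the other way. The BAT libraries had 4.72, 5.15 and 4.78 FPKM, the iWAT libraries 1.49, 1.52 and 0.871, and the eWAT libraries 1.24, 1.19 and 2.37. The BAT libraries stood apart from all 6 white libraries, while the white depots overlapped. BAT exceeded iWAT by 1.37 and eWAT by 1.21 log2 units (SE 0.23 for each), or 3.77 and 3.05 times in mean FPKM. Within the deep libraries, eWAT 1 was at 1.24 FPKM and BAT at 4.72 to 5.15. This rests on 1 white library, whose depth estimate is the least supported, and the part of depth was not tested.

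Atp6v0a4 (chromosome 6, 37998483 to 38074586, minus strand), the isoform of renal intercalated cells and epididymal clear cells, was near 0 throughout. Its highest value was 0.261 FPKM, in iWAT 1, and no library held more than about 4 reads of it. The third isoform, Tcirg1 (a3), which belongs to the pump of osteoclasts and of lysosomes but was not among the members, averaged 1.08 ± 0.243 FPKM for BAT, 2.12 ± 0.389 for iWAT and 1.73 ± 0.302 for eWAT (SD, n = 3). It was lower in BAT than in iWAT by -0.58 log2 units (limma adjusted p = 0.0291), and its BAT minus eWAT difference was -0.39 (limma adjusted p = 0.152). The call against iWAT ended without any 1 of the BAT libraries, without iWAT 3 and with no filter on low values.

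As shares of the summed a subunit FPKM, Atp6v0a1 held 65.6%, 59.1% and 65.9% in BAT, 79.1%, 81.9% and 77.9% in iWAT and 84.7%, 87.3% and 76.4% in eWAT. Atp6v0a2 held 27.0%, 35.2% and 27.4% in BAT, against 5.29% to 8.26% in iWAT and 5.24% to 12.4% in eWAT. The BAT shares of both isoforms did not overlap with those of the white libraries. The summed a subunit level was 16.5 ± 1.64 FPKM for BAT, 17.8 ± 1.20 for iWAT and 20.2 ± 2.28 for eWAT (SD, n = 3), ranges that overlap between BAT and iWAT and between iWAT and eWAT.

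**Figure D4:**
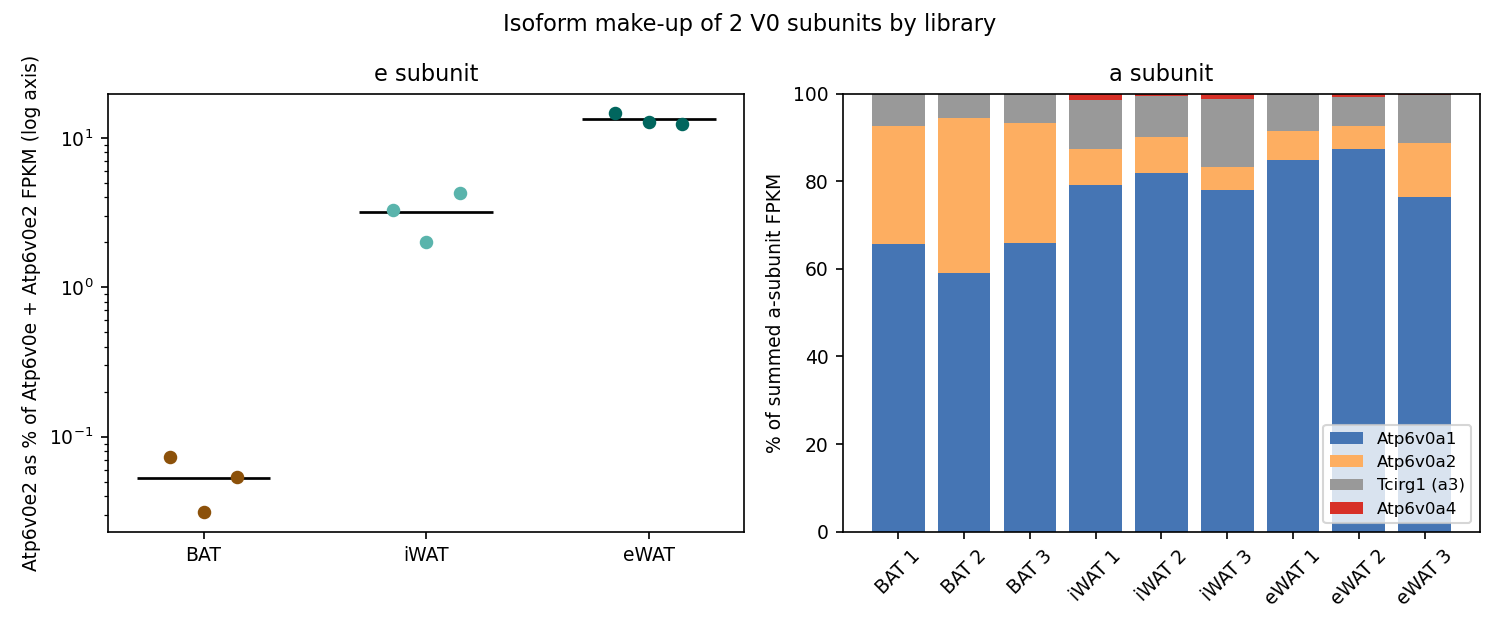
Left, Atp6v0e2 as a percentage of the summed FPKM of both e genes (log axis, points, libraries, line, mean of 3). Right, the make-up of the summed a subunit FPKM in each library (stacked percentages). Atp6v0e2 is 0.0314% to 0.0729% of the e sum in BAT and 12.4% to 14.6% in eWAT, and Atp6v0a2 takes its largest shares in BAT.

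Subunit d joins the ring to the central stalk. Atp6v0d1 (chromosome 8, 108048365 to 108089947, minus strand), the broadly expressed isoform, had 31.8, 33.6 and 38.0 FPKM in the BAT libraries, 43.1, 28.03 and 28.8 in the iWAT libraries and 55.0, 45.6 and 52.6 in the eWAT libraries. The eWAT libraries were above all others, and BAT and iWAT overlapped. BAT minus iWAT was 0.07, BAT minus eWAT -0.55 and iWAT minus eWAT -0.63 (SE 0.23 for each). The first of these was negative in 4 of 19 settings, at -0.27 with quantile normalization. Without iWAT 1, BAT minus iWAT was 0.27 and iWAT minus eWAT -0.82. Over all omissions of 1 library they ran from -0.03 to 0.27 and from -0.82 to -0.52. Atp6v0d2 (chromosome 4, 19803988 to 19849752, minus strand), the isoform of osteoclasts, macrophages and kidney, was listed at 0 in all 9 libraries. A listed 0 may be a failed estimate, so only the listing is reported.

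Within each depot the members kept wide gaps in level. In BAT the order was Atp6v0e (502 ± 31.3), Atp6v0b (203 ± 11.4), Atp6v0c (180 ± 37.9), Atp6v0d1 (34.5 ± 3.23), Atp6v0a1 (10.5 ± 1.63), Atp6v0a2 (4.88 ± 0.235) and Atp6v0e2 (0.269 ± 0.118 FPKM, SD, n = 3). Of these neighbours, Atp6v0b and Atp6v0c overlapped, and the others did not. In eWAT the order was Atp6v0e, Atp6v0b, Atp6v0c, Atp6v0d1, Atp6v0e2, Atp6v0a1 and Atp6v0a2, with overlaps between Atp6v0c and Atp6v0d1 and between Atp6v0d1 and Atp6v0e2. Atp6v0e2 thus ranked below both a isoforms in BAT and above them in eWAT. In iWAT Atp6v0e and Atp6v0b overlapped, and Atp6v0e2 (4.71 ± 3.60) lay between Atp6v0a1 (14.2 ± 1.29) and Atp6v0a2 (1.296 ± 0.368 FPKM). Levels here compare genes per length, subject to the listing of Atp6v0c.

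Of the 9 members, 7 reached the minimum for the fit across genes (at least 1 FPKM in at least 3 libraries). Atp6v0a4 and Atp6v0d2 did not, and Atp6v0e2 passed through its white libraries alone. The fit was made with limma over 10374 genes, with calls at a Benjamini-Hochberg adjusted p of 0.05. Between BAT and iWAT, 5 of 7 members were past that threshold, 4 higher in BAT (Atp6v0a2, Atp6v0b, Atp6v0c, Atp6v0e) and 1 higher in iWAT (Atp6v0e2), where 57.5% of all tested genes were called (34.5% higher in BAT, 22.9% higher in iWAT). Between BAT and eWAT, 3 of 7 were past it, Atp6v0a2 higher in BAT and Atp6v0a1 and Atp6v0e2 higher in eWAT, where 33.7% of all tested genes were called (20.2% higher in BAT, 13.5% higher in eWAT). Between iWAT and eWAT only Atp6v0e2 was past it, 1 of 7, where 1.74% of all tested genes were called (0.231% higher in iWAT, 1.5% higher in eWAT). The groups did not overlap for 6, 7 and 4 of the 7 members in these comparisons, and for 65.7%, 54.6% and 22.7% of all tested genes. As the members were chosen with these contrasts known, nothing is read from these counts. Each depot enters 2 of the 3 comparisons, so they are not independent.

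Without iWAT 1, 4 of 7 members were past the threshold between iWAT and eWAT (Atp6v0b, Atp6v0d1, Atp6v0e and Atp6v0e2, all higher in eWAT), and 3315 genes were called in place of 180. The call of Atp6v0a1 in BAT against eWAT ended in 11 of the 18 other settings, and that of Atp6v0c in BAT against iWAT without iWAT 3, with a pseudocount of 0.1 and with no filter. The median over all tested genes lay at 0.23 log2 units in BAT minus iWAT, -0.02 in BAT minus eWAT and -0.18 in iWAT minus eWAT. Quantile normalization moved these medians to 0.06, -0.04 and -0.05. The differences of Atp6v0e2 ran from -7.00 to -1.49 over the settings and comparisons run.

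**Figure D5:**
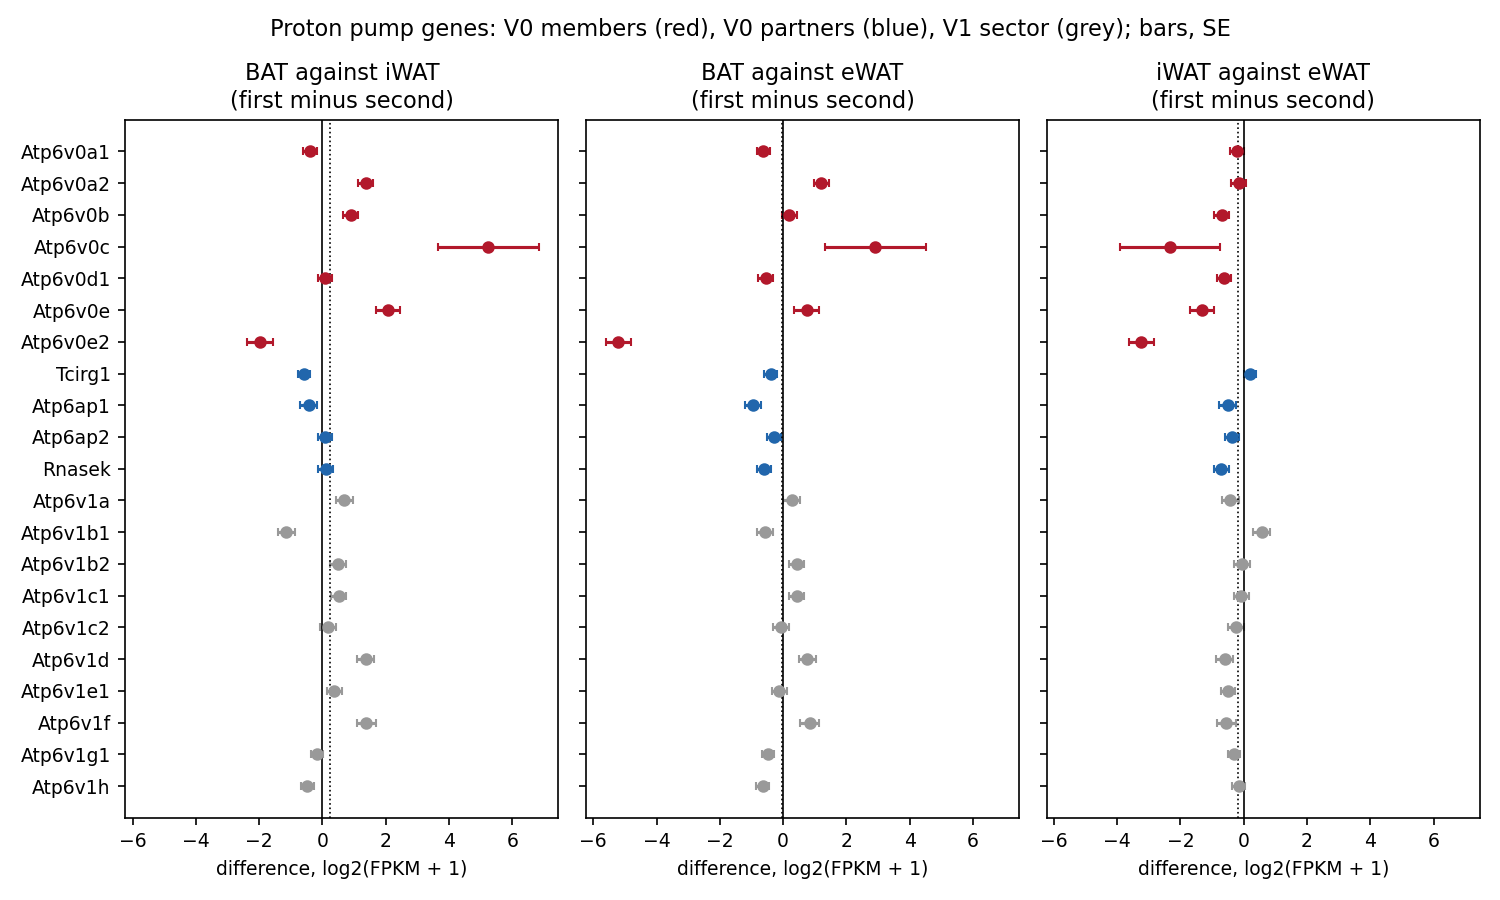
Differences in log2(FPKM + 1), first depot minus second, with SE from the fit across all genes, for V0 members (red), V0 partners (blue) and V1 genes (grey) that reached the filter. Solid line, 0, and dotted line, median of all tested genes. Atp6v0e2 lies at -5.20 in BAT minus eWAT, and Atp6v0c has the widest bars (SE 1.59).

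Of the V0 partners outside the members, Atp6ap1, the accessory subunit Ac45 inside the ring, averaged 30.1 ± 3.06 FPKM for BAT, 42.6 ± 13.5 for iWAT and 59.0 ± 3.29 for eWAT (SD, n = 3). It was lower in BAT than in eWAT by -0.95 log2 units (SE 0.26, limma adjusted p = 0.0167), a call that ended without BAT 1 or BAT 2. Atp6ap2, the prorenin receptor, was at 17.7, 16.7 and 21.6 FPKM on average in BAT, iWAT and eWAT, and Rnasek, a membrane partner of V0, at 347, 329 and 533 FPKM. Neither was called in any of the 3 comparisons, the lowest limma adjusted p being 0.0665 for Rnasek in BAT against eWAT.

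The V1 sector, which hydrolyses ATP, had 13 genes in the table, of which 10 were tested. Between BAT and iWAT, 3 were higher in BAT, 1 was lower and 6 were not called, where 57.5% of all tested genes were called (median log2 difference 0.43, against 0.23 over all tested genes). Those higher in BAT were Atp6v1f (225 ± 19.8 against 89.9 ± 35.7 FPKM, SD, n = 3, log2 difference 1.38, SE 0.30, limma adjusted p = 0.00375), Atp6v1d (1.36, SE 0.27) and the catalytic subunit Atp6v1a (0.69, SE 0.26). The call of Atp6v1a was lost in 12 of 18 alternative settings, among them median-ratio scaling, where those of Atp6v1f and Atp6v1d were kept. Atp6v1b1, the B isoform of kidney and epididymal clear cells, was lower in BAT (0.341 ± 0.268 against 1.98 ± 0.792 FPKM, log2 difference -1.14, limma adjusted p = 0.00498), while the broadly expressed Atp6v1b2 was at 45.6 and 32.8 FPKM (limma adjusted p = 0.102).

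Between BAT and eWAT, 1 of the 10 tested V1 genes was called, against 33.7% of all tested genes. Atp6v1h, a regulatory subunit, was at 37.2 ± 3.30 FPKM in BAT and 59.1 ± 7.35 in eWAT (SD, n = 3, log2 difference -0.65, limma adjusted p = 0.0336). The median V1 difference was 0.10, against -0.02 over all tested genes, and without BAT 1, 2 or 3 and without eWAT 2 or 3 no V1 gene was called. Leaving out 1 library left at least 2141 genes called over all tested genes. Median-ratio scaling also ended the call of Atp6v1h. Between iWAT and eWAT no V1 gene was called with limma, where 1.74% of all tested genes were called, and 1 of 10 had an unadjusted p under 0.05 (median -0.28, against -0.18 over all tested genes). That comparison had 0 V1 calls with the replicate number as a block as well, 1 with array weights and 4 without iWAT 1. Calls over all tested genes rose too. Array weights gave 79 higher in iWAT and 1891 higher in eWAT, of 10374. Without iWAT 1 these were 456 and 2859, of 10277, and nothing is read from the V1 counts. Atp6v1e2 was listed at 0 in all libraries, and Atp6v1g2 and Atp6v1g3 stayed under the filter.

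Of genes that assemble or regulate the pump, 8 of 10 were tested. Between BAT and iWAT, 4 were higher in BAT and 1 was lower, and between BAT and eWAT 2 were higher and 1 was lower. Over all tested genes 57.5% and 33.7% were called in these comparisons, so the counts lie near the background. Vma21, the chaperone of V0 assembly in the endoplasmic reticulum, averaged 22.4 ± 3.87 FPKM for BAT, 5.36 ± 1.96 for iWAT and 8.41 ± 0.565 for eWAT (SD, n = 3). It was called in both comparisons (log2 differences 1.91 and 1.301, SE 0.25, limma adjusted p = 0.000242 and 0.00302) and in every alternative setting. Ccdc115 and Tmem199, assembly factors of the same compartment, exceeded iWAT in BAT by 1.51 and 1.33, and for Tmem199 the libraries overlapped. Oxr1, a TLDc protein, was higher in BAT by 0.79 and 0.77, and Dmxl2, a rabconnectin, was lower in BAT than in either white depot (-0.66 and -0.75, limma adjusted p = 0.0179 and 0.0163). The call of Tmem199 ended with no filter and without BAT 1, BAT 3, iWAT 2 or iWAT 3, those of Oxr1 ended against iWAT with quantile normalization and without BAT 1, BAT 2 or iWAT 3 and against eWAT without BAT 1, BAT 2 or any 1 eWAT library, and that of Dmxl2 against eWAT with quantile normalization and without BAT 2, BAT 3 or eWAT 2. Between iWAT and eWAT limma called no gene of this list, with 2 of 8 at an unadjusted p under 0.05.

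Other lysosomal genes were counted to set the pump beside its compartment. Of 7 tested counter-ion channels and transporters, 3 had higher and 0 lower levels in BAT against iWAT, and 1 was higher in BAT against eWAT, both below the 57.5% and 33.7% of all tested genes called. The channel Tpcn1 averaged 13.2 ± 1.12 FPKM for BAT, 2.54 ± 0.767 for iWAT and 3.998 ± 0.522 for eWAT (SD, n = 3, log2 differences 2.03 and 1.51). The lysosomal proton channel Tmem175 (1.41) and the chloride transporter Clcn4-2 (1.25) exceeded iWAT in BAT too. Of 27 tested lysosomal membrane proteins and hydrolases, 12 were higher and 4 lower in BAT than in iWAT, and 7 were higher and 5 lower than in eWAT. These 16 and 12 of 27 calls compare with the same 57.5% and 33.7% over all tested genes, and nothing particular to the list is read from them. The acid lipase Lipa averaged 25.7 ± 3.07, 1.68 ± 0.992 and 3.35 ± 1.49 FPKM in BAT, iWAT and eWAT, and the tetraspanin Cd63 65.5 ± 16.1, 452 ± 206 and 659 ± 53.8. The protease Ctsl was lower in BAT than in eWAT (-1.67 log2 units, limma adjusted p = 0.00584).

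Of 15 tested genes of lysosome biogenesis and mTORC1 docking, 4 were higher and 1 lower in BAT than in iWAT, and 2 were higher in BAT than in eWAT, again below the 57.5% and 33.7% of all tested genes called. Flcn, the folliculin gene, a regulator of Rag GTPases and of TFEB and TFE3, averaged 15.9 ± 4.23 FPKM for BAT, 4.45 ± 1.03 for iWAT and 2.78 ± 0.0631 for eWAT (SD, n = 3, limma adjusted p = 0.000555 and 0.000135). The Ragulator genes Lamtor1 (row 2400001E08Rik) and Lamtor5 (row Hbxip) exceeded iWAT in BAT by 1.52 and 1.503, and the Rag GTPase gene Rragb was lower there (-1.41), a call that ended with no filter and without BAT 2, BAT 3, iWAT 2 or iWAT 3. None of these 3 lysosomal lists had a gene called by limma between iWAT and eWAT, where the medians were -0.51, -0.57 and -0.07 in the order given. At an unadjusted limma p under 0.05 they held 4 of 7, 9 of 27 and 2 of 15 genes. The share of all tested genes at that unadjusted threshold was not determined. Nothing is therefore read from these counts, nor from the unadjusted counts of the V1 genes and of the genes that assemble or regulate the pump. With adjustment, a different threshold, 180 of all 10374 genes were called.

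Summed markers of several other cell types differed between depots, and several of these sums rested on a few genes. Skeletal muscle markers (10 genes, 8 tested), led by Acta1 and Pvalb, summed to 60.6 to 150 FPKM in BAT, 1817 to 2509 in iWAT and 227 to 1301 in eWAT. In BAT and eWAT 1 nearly all of this sum was Acta1 (58.4 to 148 FPKM in BAT and 225 in eWAT 1). Epithelial markers (8 genes), led by Krt5 and Krt14, summed to 26.0 to 50.5, 162 to 437 and 64.9 to 218 FPKM. Epcam stayed at most at 0.124 FPKM, and Krt10 had its highest mean in BAT (2.46, against 1.02 in iWAT and 2.14 in eWAT). Neuronal markers (10 genes) summed to 25.8 to 59.8, 162 to 434 and 55.4 to 207 FPKM, most of it Tubb3. Snap25, Syt1, Nefl, Nefm and Sox10 stayed at or under 0.64 FPKM. Among the white libraries, eWAT 1 had the lowest muscle, epithelial and neuronal sums and Atp6v0e2 at 55.9 FPKM. The highest sums were in iWAT 2, with Atp6v0e2 at 1.57 FPKM. Its muscle sum led through Acta1 and Pvalb (1369 and 959 FPKM, against 668 and 556 in iWAT 1). The other muscle markers were highest in iWAT 1, such as Ckm (94.0, against 25.3 in iWAT 2) and Tnnc2 (310, against 69.3). The order of the sums beside Atp6v0e2 did not hold for all libraries. iWAT 1 had lower epithelial and neuronal sums (162.3 and 161.8 FPKM) than eWAT 2 (217.5 and 206.8) and eWAT 3 (192.5 and 183.4). Atp6v0e2 was at 8.65 FPKM in iWAT 1, against 39.0 and 43.5 in eWAT 2 and 3. Macrophage markers (13 genes) summed to 1.25 to 1.46 FPKM in BAT, 4.5 to 9.82 in iWAT and 3.75 to 10.7 in eWAT, led by C1qa and Lyz2, with Cd68 at most at 0.505 FPKM. The 12 markers of epididymis, testis and renal intercalated cells summed to at most 3.68 FPKM in eWAT, with Crisp1, Spink3, Slc26a4 and Prm2 listed at 0 throughout. Their sum of 8.45 to 11.1 FPKM in BAT was nearly all Car2. Endothelial (6 genes) and mesothelial (5 genes) sums were at most 4.35 and 2.31 FPKM. Stromal progenitor markers (7 genes) summed to 5.68 to 16.2, 96.1 to 361 and 38.3 to 69.1 FPKM, led by Dpt. The low Pi16, Dpp4 and Cd34 had their highest means in eWAT instead (0.632, 0.212 and 0.73 FPKM). The part of these cells in the differences of Atp6v0e2 and the other members was not tested. In bulk samples such as these pull-downs, fewer cells of a type, less RNA per cell and RNA carried along in the pull-down cannot be told apart.

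The genes whose pattern over the 9 libraries was most like that of Atp6v0e2 were sought among 5930 genes with a mean of at least 5 FPKM, by Pearson correlation of log2(FPKM + 1). The 5 highest were Lbp (0.990), Npr3 (0.990), Cdkn2b (0.987), Agt (0.987) and Olfm1 (0.987), and 77 genes had an r over 0.95. The 9 points share the library and depot structure, so these values only describe likeness. Lbp, the lipopolysaccharide binding protein, averaged 0.157 ± 0.0638 FPKM for BAT, 2.07 ± 1.61 for iWAT and 17.6 ± 2.98 for eWAT (SD, n = 3). Npr3, the natriuretic peptide clearance receptor, was at 5.48 ± 1.90, 15.1 ± 5.84 and 63.9 ± 14.3, and angiotensinogen, Agt, at 0.596 ± 0.413, 10.2 ± 9.76 and 124 ± 35.4. The cell cycle inhibitor Cdkn2b was at 1.19, 3.34 and 11.1 FPKM on average, and the secreted glycoprotein Olfm1 at 1.33, 7.005 and 28.9. Among V0 and V1 genes of that level the correlation with Atp6v0e2 ran from -0.63 (Atp6v1c1) to 0.98 (Atp6v1g1). Atp6v1g1 spanned only 125 to 181 FPKM over all libraries, against 0.146 to 55.9 for Atp6v0e2.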

How the data were processed

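The authors made the values from 9 libraries with TopHat and Cufflinks on mouse build mm9, per the submitters' processing notes. The deposited values were read as FPKM because Cufflinks is named and the values are fractional with unequal sums. The header names no unit, and versions, annotation and strand settings are not given in the sources used here. Groups followed the sample titles. Of 22996 lines, 259 symbols had more than 1 line, and for these the line of highest mean entered. Members and gene lists were chosen with earlier results of these data known.

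Values were analysed as log2(FPKM + 1) in limma 3.58.1 (R 4.3.3, intensity trend) in 1 fit of 9 libraries with 3 group means, restricted to the 10374 genes that reached 1 FPKM in 3 or more libraries, with Benjamini-Hochberg adjustment. The script was tested on simulated data. P-values measure the spread between these libraries, which may be technical. Named genes were all members, fixed partners and, per list and comparison, up to 4 called genes with the largest differences, plus the 5 most like Atp6v0e2 and the highest markers. Some genes that this rule names are not reported here. Cd68, Atp6v1b2 and the V1 genes named without a call were added after their values were seen. The alternatives changed the pseudocount (0.1), the filter (none, or a mean of 5 FPKM), the scaling (median ratio, or quantile normalization), the libraries fitted (2 depots only, or 1 library left out), the weights (array weights) or the design (replicate block). The sum of Atp6v0c and its pseudogene was added after the data were seen. Depth was estimated from transcripts of at least 1000 bases, less 200 bases. Between 43.8% and 63.7% of the low values lay within 0.15 of a whole read, so read numbers are approximate. Gene positions came from GENCODE vM1 on the same assembly, and copies were found with minimap2 2.31.

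Pairing was checked by correlating deviations from the group means. Libraries of the same number correlated at 0.634, 0.534 and 0.165 between iWAT and eWAT, and those of different numbers at -0.576 to 0.228. Numbers 1 and 2 matched best by these values, while eWAT 3 correlated more with iWAT 2 (0.228) than with iWAT 3. Deviations cancel within a depot, so the correlations are not independent. The labels name no pairing, and a pairing of these depots by number is possible but was not settled. Between BAT and iWAT they correlated at -0.324, -0.225 and 0.121, and between BAT and eWAT at -0.388, -0.202 and 0.103.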

Additional observations from a re-analysis of the deposited data

How the results depend on the processing

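The values of Atp6v0e2 describe a gene chosen for its pattern, and its place past the threshold is no sign of stability. The pseudocount of 0.1 moved its differences to -3.45 (BAT minus iWAT) and -7.00 (BAT minus eWAT). Leaving out 1 library gave -2.44 to -1.49, -5.31 to -5.06 and -3.71 to -2.76 for BAT minus iWAT, BAT minus eWAT and iWAT minus eWAT.

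The counts were less stable. V0 members past the threshold were 5, 3 and 1 in the 3 comparisons. They became 5 (BAT against eWAT) with each pair alone and with array weights, and 4 (iWAT against eWAT) with array weights. Calls over all 10374 tested genes moved in these settings too. In BAT against eWAT, each pair alone gave 2718 higher in BAT and 1932 higher in eWAT, and array weights 3098 and 3527. In iWAT against eWAT, array weights gave 79 higher in iWAT and 1891 higher in eWAT. Nothing is therefore read from the member or V1 counts. For the members, leaving out 1 library gave 4 to 5, 2 to 5 and 1 to 4. V1 genes called (4, 1 and 0) were 8, 7 and 1 with array weights, where 6928 of 10374 tested genes were called in BAT against iWAT. For BAT against eWAT the V1 calls were 2 with the mean filter, quantile normalization and the replicate block, and 4 with each pair alone. There, quantile normalization gave 1985 of all tested genes higher in BAT and 1492 higher in eWAT, and the replicate block 2128 and 1497. For V1 genes, leaving out 1 library gave 3 to 7, 0 to 4 and 0 to 4. The replicate block (pairing by number) moved no other of these counts by over 1.5 times, and it ended the calls of Atp6v1a in BAT against iWAT and of Atp6v0a1 in BAT against eWAT.

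All genes called were 5961, 3492 and 180. The filter at a mean of 5 FPKM, which tests fewer genes (5934), gave 3783, 2244 and 79. Array weights gave 6625 for BAT against eWAT and 1970 for iWAT against eWAT. The latter was 90 with the pseudocount of 0.1, 93 with no filter, 116 with median-ratio scaling and 28 with each pair alone. Leaving out 1 library gave 4289 to 6829, 2141 to 4422 and 15 to 3315, the last value without iWAT 1. Of calls between iWAT and eWAT, 13.3% were higher in iWAT, against 28.4% with median-ratio scaling, 24.8% with quantile normalization, 42.9% with each pair alone and 4.01% with array weights. That share turned to a majority without eWAT 1 (54.2% of 24 calls) and without eWAT 3 (73.3% of 15). The cause was not tested where none is named. Depth limits Atp6v0e2 in BAT, where each value rests on under 10 reads, and Atp6v0a4, with at most about 4 reads in a library.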
